A study of Homo sapiens with 12 samples.

Results

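HT29 cells, an established human line that grew out of a colorectal adenocarcinoma, were exposed for 24 h to 4 conditions, with 3 RNA libraries in each. The conditions were a water extract of Aconitum carmichaeli Debeaux (ACD) at 500 µg/mL (high dose), at 100 µg/mL (medium dose) and at 20 µg/mL (low dose), and the vehicle, PBS with 2% DMSO. Per the paper, the stock of the extract was also made in PBS with 2% DMSO. The solutions were diluted in the growth medium of the wells, so 2% is not the level that the cells met. The comparison described here is that of the high with the medium dose, the last 5-fold step of the series, which rests on 6 of the 12 libraries and covers all genes with enough counts. It addresses which transcripts moved between these doses and which held the level that the medium dose had set. The low-dose and vehicle libraries took part in the fit and give the levels from which both doses set out. All groups are of this line alone, which limits them as a model of the colon to 1 tumour line. The sample titles and the treatment field name ACD, whereas a longer treatment note describes a water extract of Poria cocos, and libraries were grouped by title and treatment field. The labels do not say that the libraries came from separate cultures, so the p-values measure the spread between these libraries, which may be technical.

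The totals were 21499126 to 29876704 expected counts in the medium-dose libraries and 15941255 to 33866644 in the high-dose libraries. High-dose replicate 2, with the lowest total, stood apart. Its log2 difference from the other high-dose libraries had an SD of 0.502 over the 10626 genes that averaged more than 5 CPM (counts scaled to a library size of 1e6), against 0.102 to 0.293 for the other 11 libraries. Results that moved without this library are given with and without it. All 13 epithelial markers looked up, among them EPCAM, CDH1, KRT20 and VIL1, were tested, and none was a DEG (a differentially expressed gene, by more than 1.5-fold) between the doses. GFAP, AQP4, OLIG2 and S100B of astrocytes, COL1A2 and DCN of fibroblasts and PTPRC and CD3E of leukocytes were at 0.315 CPM or lower in every medium-dose and high-dose library. Of the longer lists of such markers, 5 of 15 astrocytic and glioma markers, 4 of 14 fibroblast markers and 4 of 13 leukocyte markers had enough counts to be tested, and none was a DEG. Their summed level was 492 to 506 CPM at the medium and 440 to 489 at the high dose for the astrocytic list, of which CD44 (mean 488 and 453) made up most. It was 4.83 to 5.05 and 4.28 to 4.64 CPM for the fibroblast list, and 1419 to 1591 and 1276 to 1902 CPM for the leukocyte list, of which LYZ (mean 1485 and 1518) made up most. CD44 and LYZ are also expressed by epithelial cells.

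Cells read a plant extract through sensors that differ in what they respond to. The aryl hydrocarbon receptor (AhR) binds flat aromatic ligands and induces cytochrome P450 enzymes, and NRF2 is released by electrophiles and induces antioxidant enzymes. ATF4 is the transcription factor of the integrated stress response. It is translated when the initiation factor eIF2 is phosphorylated, for example when amino acids are short or mitochondria are impaired, and it induces amino acid synthesis, transport and tRNA charging genes. NF-kB induces chemokines, the secreted signals that attract leukocytes.

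Of 15374 genes tested, 75 (0.488%) were DEGs between the high and the medium dose, a term that here means a fold change over 1.5 and an adjusted p below 0.05 in the quasi-likelihood test of edgeR. The higher expression was at the high dose for 49 (0.319% of genes) and at the medium dose for 26 (0.169%). Target genes of ATF4 made up 20 of the 49, and both ribosomal RNAs of the mitochondrial genome had the largest log2 fold changes. Among the 26 were 6 mRNAs of the mitochondrial genome. In all 75 DEGs the 3 high-dose libraries lay outside the range of the 3 medium-dose libraries, as they did in 16.5% of all genes tested. The log2 fold change ranged from 0.59 to 3.25 (median 0.92) in the higher DEGs and from −1.65 to −0.61 (median −0.88) in the lower DEGs, while the median over all genes was 0.01 and 52.4% of genes were above 0. Of the 75, 66 are protein-coding. With no fold threshold 137 genes (0.891%) passed the adjusted p, and 1515 (9.85%) had an unadjusted p below 0.05. The 95% interval of the log2 fold change, which is not adjusted for the number of genes, stayed within 1.5-fold either way for 10037 genes (65.3%), and such genes are called held below. Held does not require a response at the medium dose, where 104 genes (0.676%) were DEGs against vehicle. The number of DEGs was 100 (66 higher and 34 lower, 64 of them among the 75) without high-dose replicate 2, 44 without medium-dose replicate 2 and 48 without medium-dose replicate 3.

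**Figure D1:**
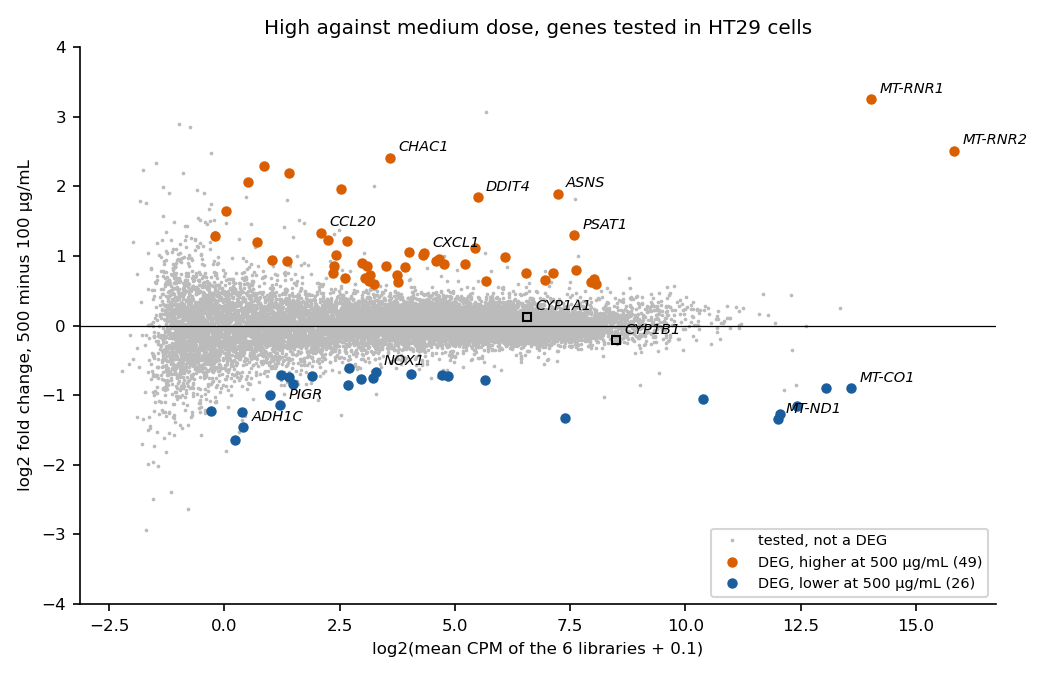
Log2 fold change of the high over the medium dose (y axis) against log2 of the mean CPM of the 6 libraries plus 0.1 (x axis), with a point for each gene tested. The 49 DEGs higher at the high dose (orange) include MT-RNR1 at 3.25 and CHAC1 at 2.41, the 26 lower DEGs (blue) include ADH1C at −1.46, and CYP1A1 and CYP1B1 (open squares) lie near 0 at 0.13 and −0.20. 8 genes beyond 4 on the y axis, none of them a DEG, are not shown.

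Of the 30 lists, that of ATF4 target genes held the most DEGs. Of 42 listed, 39 were tested and 20 were higher at the high dose (51.3%, against 0.319% of all genes), none was lower, and the median log2 fold change was 0.67. Of the 39, 35 had a log2 fold change above 0 (52.4% of all genes did), and the libraries of 32 did not overlap with the high dose above, as in 8.32% of all genes. Against vehicle, 1 of the 39 was higher at the medium dose (SLC7A11), where 0.676% of all genes were DEGs (0.384% higher and 0.293% lower). At the high dose 26 were higher and 1 was lower than vehicle, where 2.93% of all genes were DEGs (1.26% higher and 1.68% lower). These comparisons share libraries with the step itself. The difference of low dose from vehicle uses no library of the step, though the joint fit shares an estimate of the spread. In that comparison none of the 39 was a DEG and their median log2 fold change was 0.01. Relative to the vehicle mean, the list median was 0.16, 0.03 and 0.12 in the medium-dose libraries and 0.70, 0.80 and 0.67 in the high-dose libraries. The number of higher members was 20 without high-dose replicate 2 and 17 to 20 with any other single library left out, but 7 when the 6 libraries were fitted alone.

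CHAC1 (ENSG00000128965, chromosome 15, 40952962 to 40956512 of GRCh38), which degrades glutathione in the cytosol, had the largest log2 fold change of the list. Its CPM was 4.09, 3.36 and 3.93 in the medium-dose libraries and 21.9, 17.5 and 20.7 in the high-dose libraries. It was 2.59 ± 0.473 in vehicle and 2.82 ± 0.0337 at the low dose (SD, n = 3 each), so the high-dose libraries stood far above the other 9. The log2 fold change was 2.41 (standard error 0.13, adjusted p = 9.59e-07), a 5.32-fold rise. ASNS (ENSG00000070669, chromosome 7, 97851677 to 97872542), which makes asparagine, had 63.7, 63.2 and 63.6 CPM at the medium dose against 204, 300 and 205 at the high dose. The medium-dose libraries were nearly equal, whereas high-dose replicate 2 was above the other high-dose libraries. Its log2 fold change was 1.89 (standard error 0.13, adjusted p = 1.11e-05).

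The promoter sequences of these genes are shown because the data bear on both. ATF4 pairs with C/EBP proteins on a composite DNA element whose core reads TGATGNAA, and capitals mark a match to these letters on either strand. The sequences are from RefSeq (GRCh38.p14) and hold the 250 bases before a transcription start, 5′ to 3′ along the gene. ASNS has 2 starts in that table, and the start shown is the one with the match, at chr7:97872409-97872658 on the minus strand. CHAC1 is at chr15:40953221-40953470 on the plus strand, and its match is on the reverse strand.
ASNS: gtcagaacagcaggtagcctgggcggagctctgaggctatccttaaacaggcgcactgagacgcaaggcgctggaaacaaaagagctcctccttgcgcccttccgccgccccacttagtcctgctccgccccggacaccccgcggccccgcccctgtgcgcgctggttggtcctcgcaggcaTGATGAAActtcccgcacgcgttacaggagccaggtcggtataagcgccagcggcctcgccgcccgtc
CHAC1: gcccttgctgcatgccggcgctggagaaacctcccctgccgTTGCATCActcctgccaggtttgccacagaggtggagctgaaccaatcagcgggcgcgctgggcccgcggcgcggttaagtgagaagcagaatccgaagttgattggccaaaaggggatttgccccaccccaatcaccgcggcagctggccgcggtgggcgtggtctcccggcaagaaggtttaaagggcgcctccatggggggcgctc
The match begins 68 bases before the start of ASNS and 209 bases before that of CHAC1. Of the 20 higher members of the list, 17 had a sequence in the table and 4 held the letters before at least 1 start (ASNS, ATF3, CHAC1 and JDP2). Of the 39 tested members 31 had a sequence and 6 held them, CEBPG and SLC1A5 being the others. Counted in the same way, 3.89% of the 27305 genes in the table did, and 3.14% of its 35116 windows. A match is a description of the letters and does not show that a factor binds there.

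DDIT4, an inhibitor of mTORC1 signalling, had 19.7, 18.8 and 20.1 CPM at the medium dose against 66.0, 76.2 and 68.5 at the high dose. At the medium dose it lay at the vehicle level (19.8 ± 0.722, SD, n = 3), and its whole rise of 1.85 on the log2 scale (standard error 0.07, adjusted p = 5.98e-08) fell in the last step. PSAT1, which works in serine synthesis, had 114, 109 and 108 CPM at the medium dose against 253, 301 and 262 at the high dose (log2 fold change 1.30, adjusted p = 5.4e-06). PHGDH, which opens the same pathway, rose by 1.11 on the log2 scale. TRIB3, a pseudokinase that feeds back on ATF4, had 47.8, 42.7 and 45.7 CPM against 93.3, 87.0 and 89.6 (log2 fold change 0.99, adjusted p = 2.42e-05). Of the log2 change between vehicle and the high dose, 19.0% was present at the medium dose for CHAC1, 8.72% for ASNS, 9.88% for PSAT1 and 8.11% for TRIB3.

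Other higher members cover the arms of the response, and they are named by role after their values were seen. The transcription factors ATF3 (log2 fold change 1.24), JDP2 (1.22) and DDIT3 (0.89) rose, and the adjusted p was at most 0.00444 for each. Of the amino acid transporters, SLC6A9, which carries glycine, rose by 2.19 from a level of 0.947 ± 0.312 CPM (SD, n = 3). SLC1A4 rose by 1.06, and SLC3A2 and SLC7A11, which together form the cystine importer, rose by 0.67 and 0.59. SLC3A2 lost its call without high-dose replicate 2 or any of the medium-dose replicates, SLC7A11 lost it without high-dose replicate 1 or 3 or any of the medium-dose replicates, and CTH without medium-dose replicate 2 or 3. Of the enzymes, CTH of cysteine synthesis (0.85), the mitochondrial folate enzyme MTHFD2 (0.80), the alanine transaminase GPT2 (0.65) and the mitochondrial PEP carboxykinase PCK2 (0.88, adjusted p = 1.45e-04) rose. SESN2 (1.01) and EIF4EBP1 (0.95), which restrain mTORC1 and translation, and the lipoprotein receptor VLDLR (1.01) rose as well.

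The transcript of ATF4 itself had 256, 253 and 264 CPM at the medium dose against 358, 421 and 349 at the high dose. The groups did not overlap, and the log2 fold change of 0.54 (adjusted p = 0.0085) was below the 1.5-fold threshold. SHMT2 and SLC38A2 were likewise below it, both at 0.50 (adjusted p = 0.00444 each). The log2 fold change of SLC7A5 was 0.69 with an adjusted p of 0.11, since high-dose replicate 2 had 357 CPM and the other high-dose libraries 640 and 617. ATF5 and ALDH1L2 had log2 fold changes of −0.34 and −0.73, neither past the test (adjusted p = 0.499 and 0.545).

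**Figure D2:**
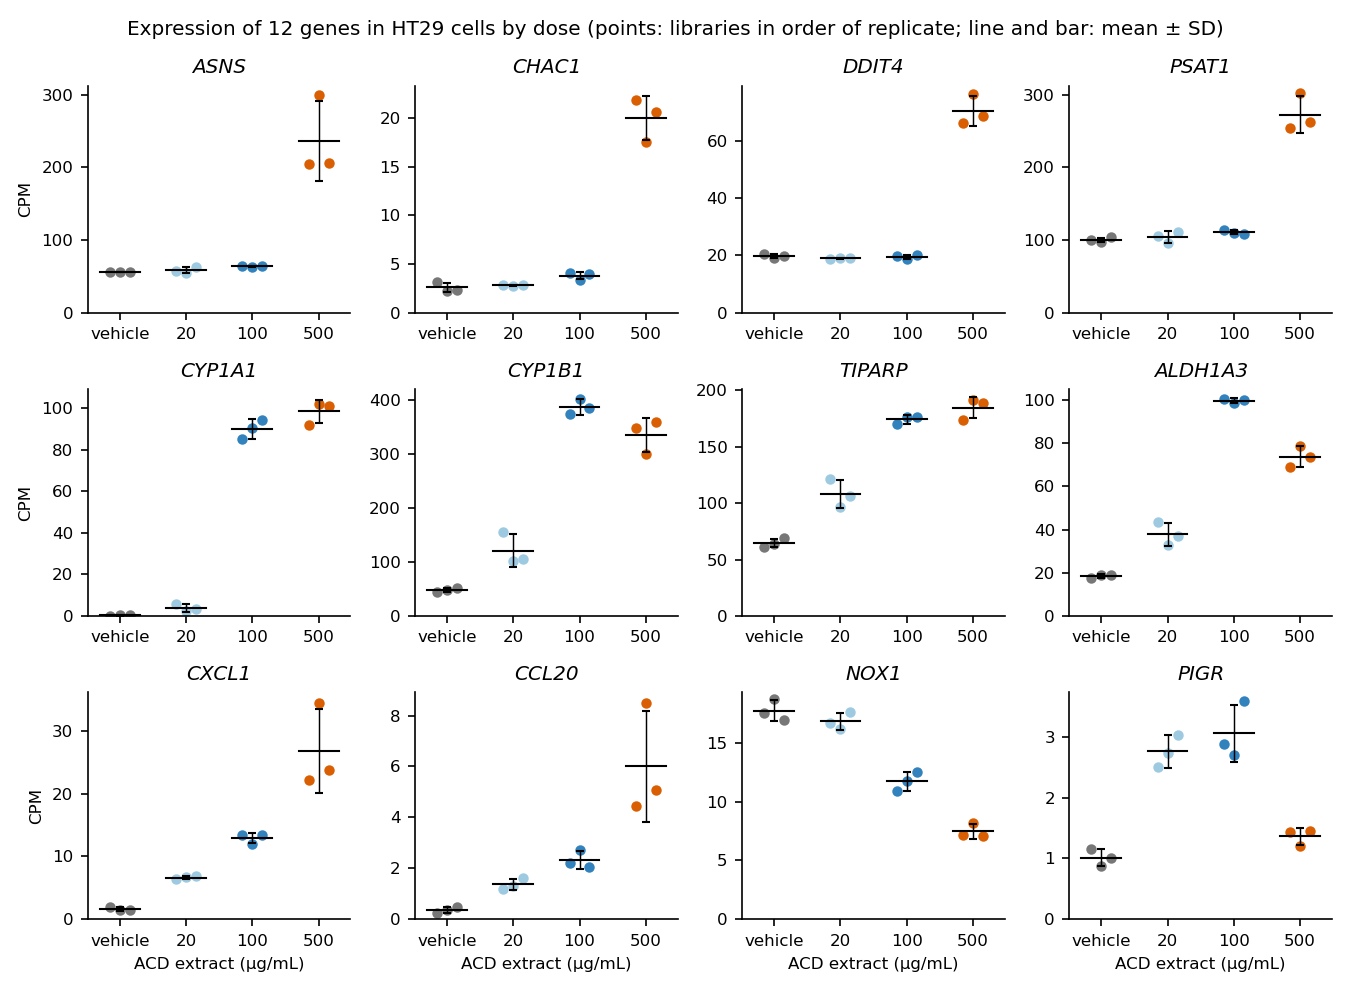
CPM (y axes, from 0) of 12 genes in each library of vehicle and of ACD at 20, 100 and 500 µg/mL (x axes), with the mean and SD of the 3 libraries of a group. ASNS, CHAC1, DDIT4 and PSAT1 (top) stay near the vehicle level up to 100 µg/mL, whereas CYP1A1 and TIPARP (middle) differ little between 100 and 500 µg/mL and CYP1B1 and ALDH1A3 lie lower at 500 µg/mL. CXCL1 and CCL20 (bottom) are higher at each dose than at the one before, NOX1 is lowest at 500 µg/mL, and PIGR is lower at 500 than at 100 µg/mL.

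The aminoacyl-tRNA synthetases, which charge tRNAs with amino acids, shifted by less. Of 20 tested, SARS1 for serine (log2 fold change 0.75, adjusted p = 0.00534) and GARS1 for glycine (0.62, adjusted p = 0.00196) were DEGs, both higher (10.0%, against 0.319% of all genes). The median was 0.32. There were 19 above 0 and 13 without overlap and with the high dose above, against 52.4% and 8.32% of all genes. SARS1 had 104, 105 and 104 CPM at the medium dose against 153, 217 and 158 at the high dose, with high-dose replicate 2 the highest. AARS1 (0.53), WARS1 (0.47), CARS1 (0.45), YARS1 (0.40), IARS1 (0.34), EPRS1 (0.32) and MARS1 (0.32) had adjusted p-values of 0.0023 to 0.038 but stayed under 1.5-fold. The number of DEGs of this list was 0 to 3 over the alternatives. Without high-dose replicate 2 neither SARS1 nor GARS1 was a DEG, and the list median was 0.27.

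The RNAs of the mitochondrial genome moved in opposite directions. This genome codes for 2 ribosomal RNAs, 22 tRNAs and 13 mRNAs of the respiratory chain. MT-RNR1 (ENSG00000211459, chromosome M, 648 to 1601), the RNA of the small mitochondrial ribosomal subunit, had 3315, 3362 and 2899 CPM at the medium dose against 30977, 31764 and 28408 at the high dose. The vehicle mean was 1288 CPM and the low-dose mean 1106, so the high-dose libraries were far above every other library. Its log2 fold change was 3.25 (standard error 0.11, adjusted p = 3.11e-08). MT-RNR2, the RNA of the large subunit, had 18176, 17725 and 16230 CPM at the medium dose against 103306, 104763 and 88975 at the high dose (log2 fold change 2.51, adjusted p = 3.91e-07). Together these RNAs took 1.96% to 2.18% of the expected counts of the medium-dose libraries, 11.3% to 12.5% of the high-dose libraries, and 0.982% to 1.22% of the vehicle and low-dose libraries. Of the log2 change between vehicle and the high dose, 28.7% was present at the medium dose for MT-RNR1 and 23.2% for MT-RNR2. The study describes an mRNA library kit, and the share of these RNAs depends on how far a library depletes them, which was not tested. None of the 22 mitochondrial tRNAs had enough counts to be tested.

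Of the 13 mitochondrially encoded mRNAs, all tested, none was higher and 6 were lower (46.2%, against 0.169% of all genes), with a list median of −0.90. The libraries of 10 did not overlap with the high dose below, as in 8.19% of all genes. MT-ND2 (chromosome M, 4470 to 5511), a subunit of complex I, had 6318, 6109 and 5579 CPM at the medium dose, and the high-dose libraries had 2883, 2409 and 2187 CPM. Its log2 fold change was −1.27 (standard error 0.22), with an adjusted p of 0.0192. MT-ND1 (−1.35), MT-ND4 (−1.15) and MT-ND3 (−1.05) of the same complex and MT-CO1 and MT-CO3 of cytochrome c oxidase (−0.90 each) also fell, with adjusted p-values of 0.0149 to 0.0455. MT-ATP8 (−1.03), MT-ATP6 (−0.92), MT-ND4L (−0.86) and MT-CO2 (−0.85) were lower without overlap but did not pass the test. MT-CYB (−0.35), MT-ND5 (−0.04) and MT-ND6 (0.39), the last encoded on the other strand, had overlapping libraries. These mRNAs took 6.76% to 7.57% of the expected counts at the medium dose and 2.76% to 4.07% at the high dose. Relative to the vehicle mean, the list median was −0.91, −0.93 and −1.47 in the high-dose libraries, with replicate 3 the lowest, and −0.32, −0.36 and −0.50 in the medium-dose libraries. Without high-dose replicate 2 the number of DEGs was 2, MT-CO1 and MT-CO3. MT-ND1, MT-ND2, MT-ND3 and MT-ND4 of complex I all lost their call without that library. The number was 3 without low-dose replicate 2 or vehicle replicate 2 or 3, and 0 without high-dose replicate 3 or any of the medium-dose replicates. The list median stayed between −1.03 and −0.78 under every alternative. MTND2P28, a nuclear pseudogene of MT-ND2, fell by 1.33 on the log2 scale but lost its call without high-dose replicate 2, and reads of such copies cannot be told apart with certainty. Scaling the libraries without mitochondrial genes left 75 DEGs, with these 6 mRNAs still lower. In bulk RNA, fewer cells that express a gene and less RNA of it per cell cannot be told apart.

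**Figure D3:**
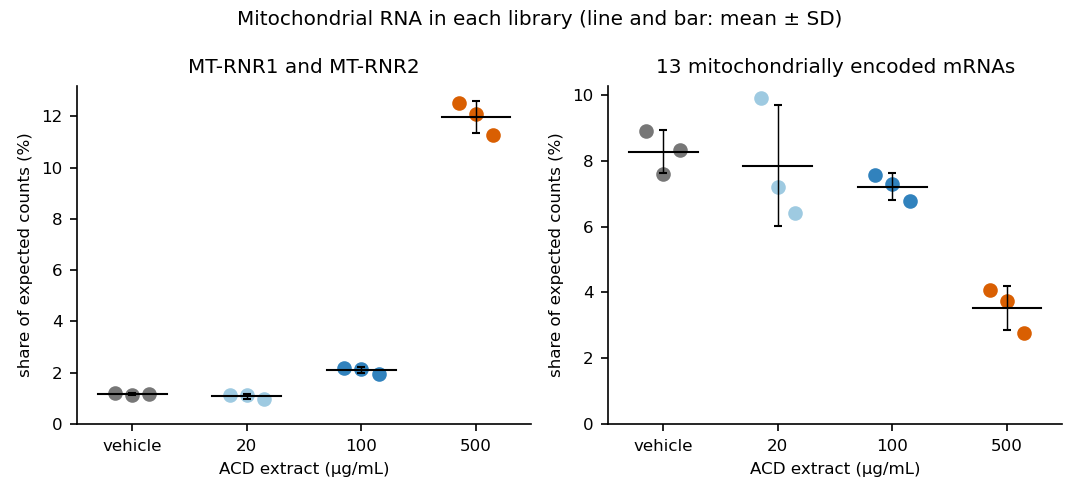
Share of all expected counts (y axes, percent) taken by the 2 mitochondrial ribosomal RNAs (left) and the 13 mitochondrially encoded mRNAs (right) in each library of the 4 groups (x axes), with the mean and SD of 3 libraries. The ribosomal share is 11.3% to 12.5% at 500 µg/mL and at most 2.18% elsewhere, and the mRNA share is at most 4.07% at 500 µg/mL and at least 6.43% elsewhere.

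AhR target genes showed no DEG in this step. Of 18 listed, 14 were tested, and 10 were held (71.4%, close to the 65.3% of all genes, so the share says little of the list). Without high-dose replicate 2 the list held 1 DEG, the amino acid transporter SLC7A5 at 0.91, which is also on the ATF4 list. CYP1A1 (ENSG00000140465, chromosome 15, 74719542 to 74725536), an enzyme that oxidises aromatic compounds, had 85.0, 90.5 and 94.4 CPM at the medium dose against 92.1, 102 and 101 at the high dose. The libraries overlapped, and the log2 fold change was 0.13 (95% interval −0.31 to 0.57, adjusted p = 0.805). The level was 3.78 ± 1.87 CPM at the low dose and 0.285 ± 0.153 in vehicle (SD, n = 3 each), so 98.4% of the log2 change from vehicle to the high dose was present at the medium dose. CYP1B1, a related enzyme, had 373, 401 and 384 CPM against 348, 299 and 358, all lower at the high dose but with an interval of −0.51 to 0.10 that is within 1.5-fold. TIPARP, an ADP-ribosyltransferase that feeds back on the receptor, had 170, 176 and 177 CPM against 174, 192 and 189 (log2 fold change 0.08, interval −0.10 to 0.27).

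The other AhR genes did not all follow this pattern. ALDH1A3, which makes retinoic acid, had 101, 98.5 and 100 CPM at the medium dose against 69.0, 78.9 and 73.5 at the high dose. Its log2 fold change was −0.44 (interval −0.64 to −0.24, adjusted p = 0.0521), so it was neither held nor a DEG. ALDH3A1, an aldehyde dehydrogenase, had 51.7, 52.7 and 53.6 CPM against 74.0, 81.4 and 74.1, with a log2 fold change of 0.54 (adjusted p = 0.00265) that was below the fold threshold. UGT1A6 of glucuronidation was held at 0.15, and so was AHRR, the receptor's repressor, at −0.16. NQO1, a quinone reductase that NRF2 also induces, had a log2 fold change of 0.55 (adjusted p = 0.157), with 1230 CPM in high-dose replicate 2 against 773 and 788 in the others. In the plot of list medians the AhR list is higher at the high than at the medium dose relative to vehicle, whereas the median of the members' own high-to-medium changes was −0.04. The median falls on different members at each dose, and with 14 members it does not stand for CYP1A1 or CYP1B1.

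**Figure D4:**
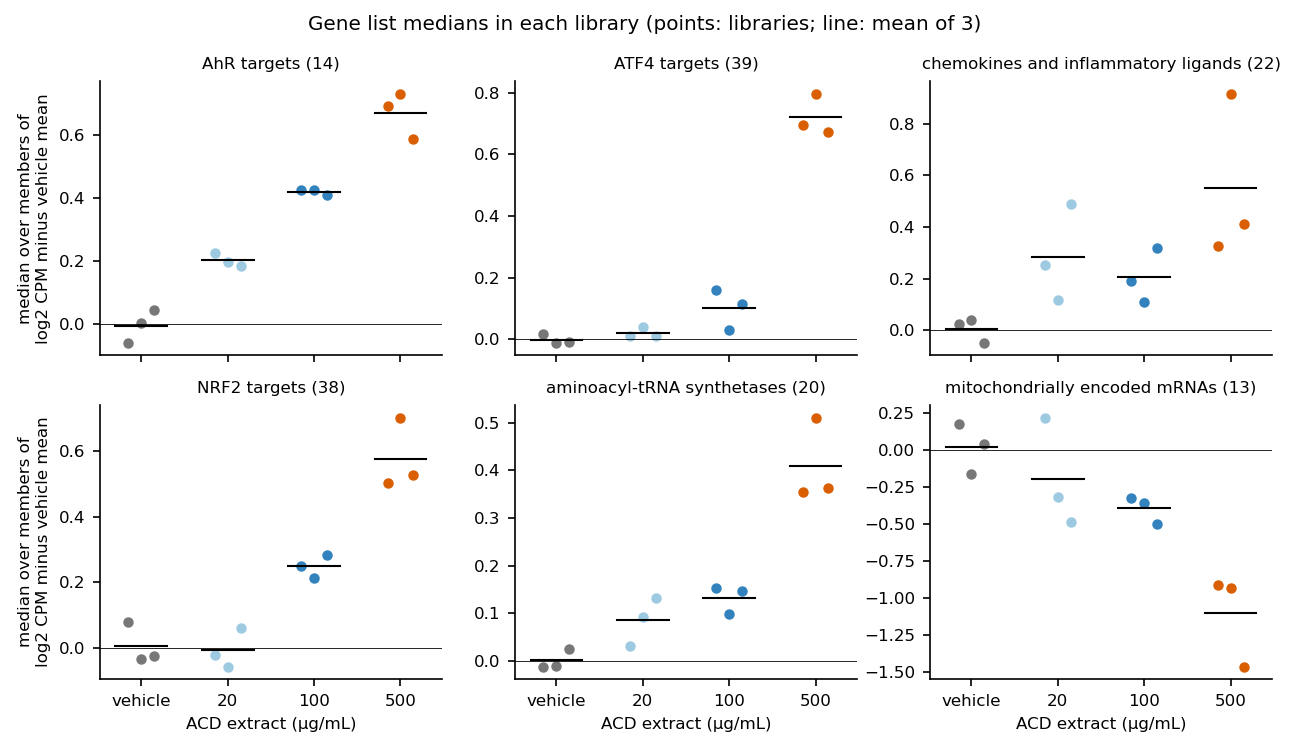
Median over the tested members (number in brackets) of log2 CPM minus the vehicle mean (y axes) in each library by dose (x axes), with a line at the mean of 3 libraries. The 3 high-dose points of the ATF4 list lie at 0.67 to 0.80 and its medium-dose points at 0.03 to 0.16, and those of the mitochondrially encoded mRNAs lie at −1.47 to −0.91 and −0.50 to −0.32.

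The doses were spaced by equal factors of 5, so the last step could be set against the preceding step, from the low to the medium dose, in the same fit. The difference of the 2 log2 changes passed the test (adjusted p under 0.05 and over 1.5-fold) for 12 genes (0.0781%), and 492 (3.2%) had an unadjusted p under 0.05. The last step was the larger for 7 genes (0.0455%). These were CHAC1 (difference 1.99), DDIT4 (1.80), ASNS (1.77), PSAT1 (1.22) and TRIB3 (0.91) of the ATF4 list and MT-RNR1 (1.72) and MT-RNR2 (1.62), with adjusted p-values of 1.28e-04 to 0.0161. The log2 change of DDIT4 was 0.04 in the preceding and 1.85 in the last step, while that of MT-RNR1 was 1.53 and then 3.25.

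The last step was the smaller for 5 genes (0.0325%). They were CYP1A1 (difference −4.43, from 4.56 in the preceding step to 0.13), CYP1B1 (−1.88), ALDH1A3 (−1.84), the antisense RNA ALDH1A3-AS1 (−1.06) and the adhesion receptor ADGRF1 (−1.02), with adjusted p-values of 2.27e-04 to 0.0293. ADGRF1 had 83.5, 81.8 and 80.7 CPM at the medium dose against 71.4, 74.9 and 75.2 at the high dose. Both steps use the medium-dose libraries, so an error in these moves the steps in opposite directions. The number of genes that passed was 34 without high-dose replicate 2 (all 12 among them) and 5, 4 and 3 without medium-dose replicates 1, 2 and 3. ALDH1A3-AS1 lies opposite ALDH1A3, and the strand setting of the counting is not given in the sources used here. It is therefore not known how far the reads of this pair were told apart.

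Genes that had already responded at the low dose were chosen on the difference of low dose from vehicle. These libraries do not enter the difference of the high from the medium dose. The calls still depend on all 12 libraries, since the joint fit shares an estimate of the spread. There were 17 of them (0.111% of genes, 10 or 0.065% higher and 7 or 0.0455% lower than vehicle), and 1223 genes (7.95%) had an unadjusted p under 0.05. Between the medium and the high dose, 7 of the 17 were held, 2 were DEGs and 8 were neither, so the share held was below the 65.3% of all genes. The 7 were CYP1A1, CYP1B1, TIPARP, the collagen glucosidase PGGHG, LY6G5B, SLC16A1-AS1 and ENSG00000259891. PGGHG had 105, 96.8 and 94.0 CPM at the medium dose against 118, 82.5 and 104 at the high dose, and its low-dose libraries were at 93.5 to 99.9 against 57.9 to 64.2 in vehicle. LY6G5B had 17.8, 17.9 and 15.4 CPM against 15.7, 16.4 and 14.6 (log2 fold change −0.13).

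The 2 that moved did so in opposite directions, CXCL1 up and PIGR down. Among the 8 others were ALDH1A3, the complement factor C3 (log2 fold change 0.31, interval −0.30 to 0.91), FAM215B, ENSG00000279573, RN7SL2, ENSG00000280614 and ENSG00000281181. For RN7SL2, a noncoding RNA of the signal recognition particle, high-dose replicate 2 had 230 CPM and the other 5 libraries 54.4 to 94.5, so that its log2 fold change of 0.61 turned to −0.32 without that library. RN7SL2 has a near copy in the genome, and ENSG00000280614 and ENSG00000281181 gave nearly equal counts, so their reads were not told apart. Over single libraries left out, the number held was 3 to 32, the highest without high-dose replicate 2, where 109 genes were chosen at the low dose. Of the 75 DEGs between the high and the medium dose, low dose against vehicle was called in CXCL1 and PIGR and in no other. The median log2 fold change of low dose against vehicle was 0.01 in the 49 higher and 0.02 in the 26 lower DEGs.

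Chemokines and other inflammatory ligands were few among the DEGs. Of 22 tested, 2 were higher (9.09%, against 0.319% of all genes), none was lower, and the median log2 fold change was 0.34. CXCL1 (ENSG00000163739, chromosome 4, 73869393 to 73871308), which attracts neutrophils, had 13.4, 11.9 and 13.5 CPM at the medium dose against 22.2, 34.5 and 23.8 at the high dose, after 1.64 ± 0.293 in vehicle and 6.64 ± 0.249 at the low dose (SD, n = 3 each). Each dose lay above the one before without overlap, and the log2 fold change of the last step was 1.04 (standard error 0.15, adjusted p = 0.00459). CCL20, which attracts dendritic cells and lymphocytes, had 2.20, 2.71 and 2.05 CPM against 4.46, 8.49 and 5.07 (log2 fold change 1.33, standard error 0.24, adjusted p = 0.0223), and was not a DEG when any of the medium-dose libraries was left out. In both genes high-dose replicate 2 was the highest, and both were still DEGs without it. Without high-dose replicate 1 the list held 4 DEGs. Of the log2 change from vehicle to the high dose, 74.2% was present at the medium dose for CXCL1 and 66.6% for CCL20.

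CXCL8, the best known neutrophil attractant, had 16.9, 19.4 and 17.8 CPM at the medium dose against 23.8, 55.6 and 30.0 at the high dose. Its log2 fold change of 1.00 did not pass the test (adjusted p = 0.101), and high-dose replicate 2 was far above the others. CXCL3 (0.87), CXCL2 (0.77) and CXCL6 (0.69), relatives of CXCL1, did not pass either (adjusted p = 0.104, 0.153 and 0.419). CXCL1, CXCL2 and CXCL3 have similar sequences, so reads that several of them match may have been assigned to any.

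The promoters of CXCL1 and CCL20 are shown because both genes were higher at each dose than at the one before. CXCL1 was a DEG at each of these steps, whereas CCL20 was one in the last step only. For CCL20, edgeR's test gave an adjusted p of 0.0762 for low dose against vehicle and 0.844 for medium against low dose. Capitals mark matches on either strand to a form of the element bound by NF-kB, which reads GGG, then any 2 bases, then TTTCC. CXCL1 is at chr4:73869143-73869392 and CCL20 at chr2:227813592-227813841, both on the plus strand of GRCh38.p14 (RefSeq), and the match of CCL20 is on the reverse strand.
CXCL1: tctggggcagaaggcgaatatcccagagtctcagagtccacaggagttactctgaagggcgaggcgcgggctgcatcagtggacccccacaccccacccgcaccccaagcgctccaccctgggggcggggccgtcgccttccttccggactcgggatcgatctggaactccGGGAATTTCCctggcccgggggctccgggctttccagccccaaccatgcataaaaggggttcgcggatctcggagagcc
CCL20: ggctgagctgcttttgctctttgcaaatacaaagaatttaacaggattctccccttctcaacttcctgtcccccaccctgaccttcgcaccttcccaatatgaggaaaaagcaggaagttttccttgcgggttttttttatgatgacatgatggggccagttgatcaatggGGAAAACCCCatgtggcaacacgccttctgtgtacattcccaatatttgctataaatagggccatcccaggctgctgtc
In both genes the match begins 79 bases before the start. Of the 22 tested members, 16 had a sequence in the table and 7 held the letters (CCL20, CXCL1, CXCL2, CXCL3, CXCL6, IL1RN and IL32) before at least 1 start. Counted in the same way, 2.12% of all genes in the table did, and 1.73% of its windows.

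Of 31 tested NF-kB subunits, feedback inhibitors and targets, ICAM1 was higher (3.23%, against 0.319% of all genes), PIGR was lower (3.23%, against 0.169%) and 24 were held (77.4%, near the 65.3% of all genes). ICAM1, an adhesion molecule for leukocytes, had 7.25, 6.36 and 6.26 CPM at the medium dose against 11.4, 10.4 and 10.9 at the high dose (log2 fold change 0.72, adjusted p = 0.00974), and was not a DEG without medium-dose replicate 2 or 3. PIGR, which carries immunoglobulin A across the epithelium, had 2.89, 2.71 and 3.60 CPM against 1.44, 1.20 and 1.45. It stood at 1.02 ± 0.138 CPM in vehicle and 2.77 ± 0.269 at the low dose (SD, n = 3 each), so its level rose by the low dose and fell back in the last step (log2 fold change −1.15, standard error 0.17, adjusted p = 0.00574). BIRC3, an inhibitor of cell death, was held at 0.04 (interval −0.20 to 0.28). PI3, the protease inhibitor elafin, is in none of the lists and rose by 0.72 (adjusted p = 0.0142), from 9.94 ± 0.608 to 16.5 ± 2.03 CPM (SD, n = 3 each), but lost its call without high-dose replicate 3 or any of the medium-dose replicates.

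NRF2 target genes moved by small amounts. Of 38 tested, 3 were higher (7.89%, against 0.319% of all genes), and the median was 0.28 (0.20 without high-dose replicate 2). There were 35 with a log2 fold change above 0 and 22 without overlap and with the high dose above, against 52.4% and 8.32% of all genes. HMOX1, which degrades haem, had 10.4, 10.7 and 11.1 CPM at the medium dose against 17.2, 22.4 and 18.4 at the high dose (log2 fold change 0.84, standard error 0.11, adjusted p = 0.00265). AKR1C1, an aldo-keto reductase, had 18.8, 19.0 and 18.8 CPM against 26.7, 48.7 and 29.7 (0.88, adjusted p = 0.041). It was a DEG under 10 of 22 alternatives, of the single libraries left out only without one of the high-dose replicates, and its counts depend on how reads shared with AKR1C2 were divided. SLC7A11, also on the ATF4 list, was the third. With any of the medium-dose libraries left out 1 of the 38 was a DEG. AKR1B10 (0.46), the ferritin heavy chain FTH1 (0.45), ME1 (0.38) and GCLC (0.30) had adjusted p-values of 0.016 to 0.0441 but stayed below 1.5-fold. TXNRD1, the cytosolic thioredoxin reductase, had 537, 519 and 530 CPM against 557, 551 and 563 and was held at 0.08 (interval −0.08 to 0.23). Its level in vehicle was 324 to 357 CPM.

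In the list of brush border and nutrient uptake genes, 18 were tested and 2 were lower (11.1%, against 0.169% of all genes). These 2 are an oxidase and a dehydrogenase, and no microvillus protein, hydrolase or transporter of the list was a DEG. The libraries of 9 of the 18 did not overlap with the high dose below, and those of 1 with it above. Of all genes, 8.19% and 8.32% did so. The list median was −0.12, and 8 of the 18 were held (44.4%, against 65.3% of all genes). NOX1, the superoxide-producing oxidase of the colon, had 10.9, 11.7 and 12.5 CPM at the medium dose against 7.16, 8.21 and 7.04 at the high dose (log2 fold change −0.66, standard error 0.09, adjusted p = 0.00444). Its vehicle level was 17.7 ± 0.903 CPM (SD, n = 3), and 47.4% of its log2 change was present at the medium dose. ADH1C, an alcohol dehydrogenase, had 2.30, 1.60 and 1.47 CPM against 0.675, 0.708 and 0.584 (log2 fold change −1.46, standard error 0.24, adjusted p = 0.0134). It lost its call without high-dose replicate 3, and its relatives share parts of its sequence. SLC5A1, the glucose transporter of the brush border, had 15.1, 14.7 and 15.1 CPM against 9.95, 10.5 and 11.6, a log2 fold change of −0.48 (adjusted p = 0.0298) that was below the fold threshold. BTG2, an antiproliferative gene, fell by 0.71 (adjusted p = 0.0023). It was the only DEG among 23 tested p53 targets (4.35% lower, against 0.169% of all genes). VEGFA, the vascular growth factor, rose by 0.75 (adjusted p = 0.00265). It was the only DEG among 31 genes of glycolysis and hypoxia (3.23% higher, against 0.319% of all genes).

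Among the 10 largest log2 fold changes each way with a mean of at least 1 CPM were also genes outside the lists. ULBP1, a ligand that marks stressed cells for natural killer cells, had 0.367, 0.718 and 0.655 CPM at the medium dose against 3.33, 2.19 and 3.07 at the high dose (log2 fold change 2.29, adjusted p = 0.00302). The long noncoding RNA LINC01133 rose by 2.06 from 0.503 ± 0.0523 to 2.13 ± 0.115 CPM (SD, n = 3 each), and the peptide hormone ADM2 rose by 1.96 from 2.36 ± 0.288 to 8.98 ± 2.76 CPM. The uncharacterised RNA ENSG00000214797 fell by 1.65, the antisense RNA XXYLT1-AS2 by 1.25 and the meiotic cohesin gene REC8 by 0.99. REC8 was a DEG under 8 of 22 alternatives, and of the single libraries left out only without high-dose replicate 2 or medium-dose replicate 1.

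Most lists held no DEG. This was so for ER chaperones, cytosolic heat shock genes, the cholesterol pathway, DNA replication, mitosis, replication-dependent histones, MAPK output, Wnt targets, metallothioneins and goblet cell genes. All 26 tested cholesterol synthesis genes, 38 of 40 DNA replication genes, 18 of 19 heat shock genes and 19 of 24 ER chaperone and folding genes were held, where 65.3% of all genes were. No gene of the cholesterol, DNA replication, heat shock and ER lists was a DEG against vehicle at the medium or the high dose. For them held therefore does not mean a plateau. The median log2 fold change was 0.29 for cytosolic ribosomal proteins, 74 of 74 above 0, and 0.20 for nuclear genes of oxidative phosphorylation and 0.13 for the proteasome. Without high-dose replicate 2 these medians were −0.01, −0.06 and −0.10, so their direction depended on that library. The median of 6 Pol III and structural RNAs went from 0.54 to −0.18 in the same way. The interferon-stimulated genes, 37 tested, had a median of −0.29 with 17 non-overlapping and lower (8.19% of all genes were), and none of those listed was a DEG. DDX60, an interferon-stimulated gene that is not on the list and was named after its values were seen, was a DEG. It had 5.88, 8.49 and 9.87 CPM at the medium dose against 4.28, 4.60 and 4.55 at the high dose (log2 fold change −0.86, adjusted p = 0.028), and was called under 13 of 22 alternatives. Without high-dose replicate 2, 1 of the interferon-stimulated genes was lower, and 1 MAPK output gene and 1 colon marker were higher. Over all alternatives, 0 to 5 of the listed interferon-stimulated genes were lower. Relative to the vehicle mean, their median was −0.04, 0.13 and 0.46 in the medium-dose libraries and −0.19, −0.07 and −0.19 in the high-dose libraries, so the medium-dose libraries were spread the more.

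**Figure D5:**
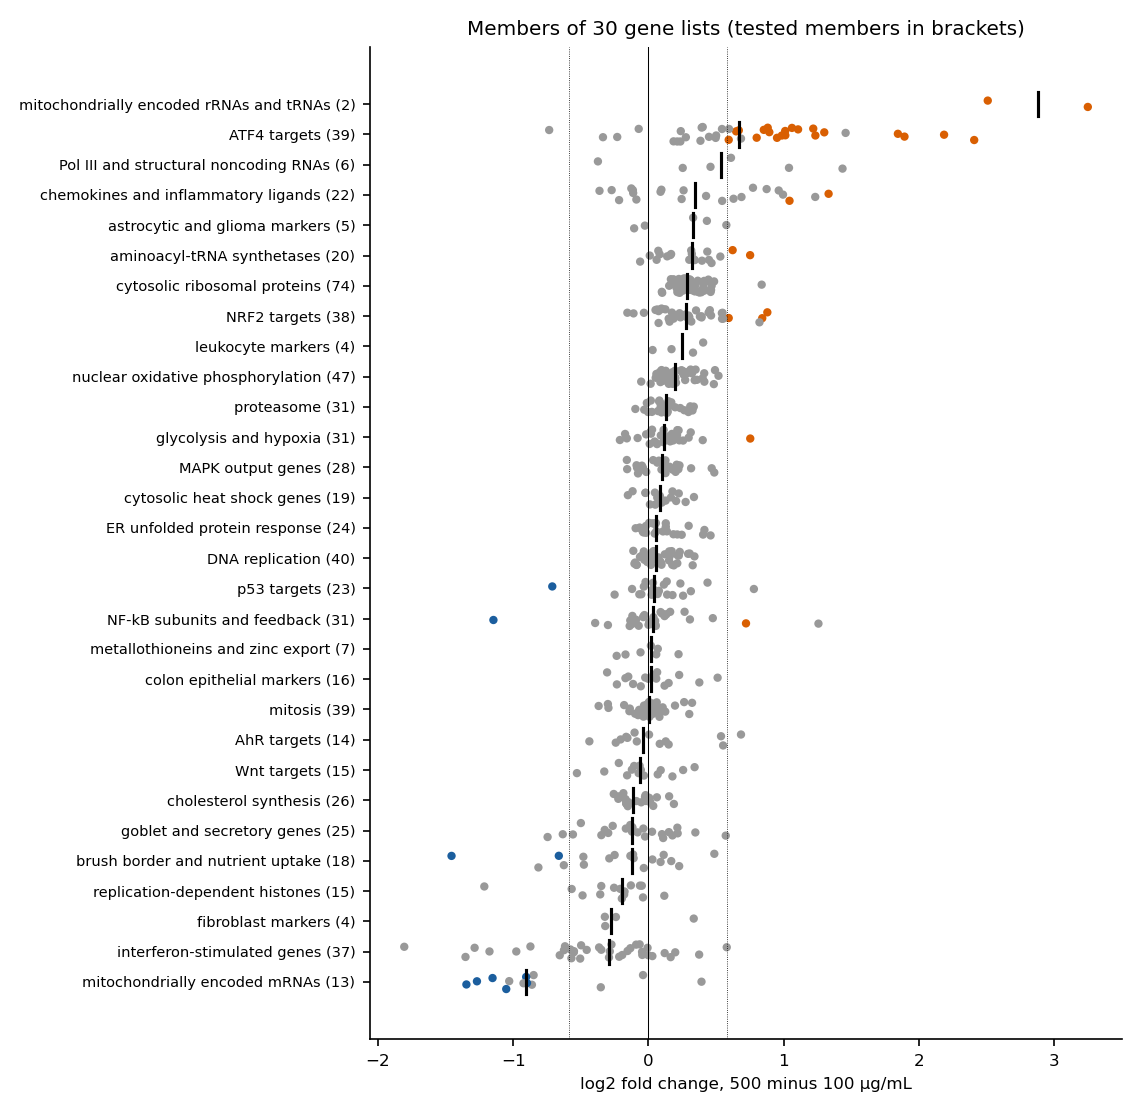
Log2 fold change of the high over the medium dose (x axis) for each tested member of 30 gene lists (y axis), with DEGs that are higher in orange and lower in blue, a black bar at the list median and dotted lines at 1.5-fold. The ATF4 list has 20 orange points and a median of 0.67, the mitochondrially encoded mRNAs have 6 blue points and a median of −0.90, and the AhR list has none of either with a median of −0.04.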

How the data were processed

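RNA of 12 HT29 libraries (100 bp paired-end reads, MGIEasy RNA Directional kit) was processed by the authors. Per the labels, FastQC 0.11.9, Trim Galore 0.6.5, STAR 2.7.3a and RSEM 1.3.3 were used, while the paper gives other releases of Trim Galore and STAR. RSEM's expected counts per gene on GRCh38 were deposited without normalization. RSEM's strand setting is not given in the sources used here. Totals per library are given in the report, and replicates varied by 11.2% (biological coefficient of variation).

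Rounded to whole numbers, these were fitted jointly in edgeR 4.0.16 (R 4.3.3) with filterByExpr, TMM scaling and robust quasi-likelihood estimation, with group as the only term. Contrasts were high minus medium dose, medium minus low dose, each dose minus vehicle, and the last minus the preceding step. The Benjamini–Hochberg adjustment of p-values ran over the 15374 genes tested. Standard errors and 95% intervals were obtained from the F statistic. CPM values use the TMM-scaled library size, and log2 CPM a prior count of 2. Of 60675 gene IDs, 29696 had a count. Names and coordinates are from GENCODE release 44 (15196 of the tested IDs found). No duplicate libraries were found.

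The comparison, the members and the 30 gene lists (893 genes, 883 matched, 704 tested) were chosen with earlier results of these data known, and lists are described without a set test. Genes were named by rule. The rule took the 10 largest DEGs each way with a mean of at least 1 CPM over the 6 libraries and no overlap, up to 4 DEGs by p per list, up to 5 genes each way by p for the step difference, the low-dose DEGs with at least 1 CPM, and 10 genes known from the earlier results (CYP1A1, MT-RNR1, RN7SL2, CXCL1, CCL20, NOX1, PCK2, AKR1B10, SLC5A1 and ADH1C). Other genes were named for their role after their values were seen. A gene that the rule names is not reported here.

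Alternatives were DESeq2 1.42.0, DESeq2's size factors, scaling without mitochondrial genes, other filters, fold thresholds and margins, fits of the 6 libraries alone, a replicate block and each library left out. An offset for transcript length and GC content and DESeq2 without high-dose replicate 2 were chosen after seeing the data. The steps were first tested on simulated data. Promoters were read from RefSeq sequences of GRCh38.p14 with Python 3.11.15, and figures were drawn with matplotlib.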

Additional observations from a re-analysis of the deposited data

How the results depend on the processing

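The 75 DEGs became 112 (60 higher and 52 lower) with DESeq2 on all libraries, so that 53.6% rather than 65.3% of them were higher. They became 10 with edgeR on the 6 libraries alone, all among the 75, and 137 without a minimum fold change. Leaving out single libraries gave 44 to 100. Of the 75, 10 were called under every alternative that tested them, 51 under at least 3 in 4, and 64 without high-dose replicate 2. Step differences passed for 35 genes instead of 12 with DESeq2, 23 with the offset for length and GC content, 36 with DESeq2 without high-dose replicate 2, and 3 to 34 with single libraries left out. The number of low-dose DEGs held, 7 as reported, was 19 (of 62) with DESeq2, 13 (of 34) without a filter, 11 (of 33) with the offset, 27 (of 78) with DESeq2 without high-dose replicate 2, 13 with a 2-fold margin, and 3 to 32 with single libraries left out. Low dose against vehicle was called in 6 instead of 2 of the DEGs with DESeq2, 4 without a filter, 5 with the offset, 4 with DESeq2 without high-dose replicate 2, and 1 to 4 with single libraries left out.

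The replicate numbers were not taken to pair the libraries, since the correlation of same-numbered high-dose and medium-dose libraries' deviations was 0.33, 0.26 and −0.0046. Replicates 1 and 2 correlated best with their own number and replicate 3 with another. With a replicate block there were 63 DEGs (60 among the 75), 9 step differences and 4 held genes.

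Of the DEGs, the genes named by rule and some further members, for which alone each alternative was computed gene by gene, 11 turned the sign of their log2 fold change with a single library left out, and none of these was a DEG. It ranged from −0.29 (without high-dose replicate 3) to 0.014 (without high-dose replicate 2) for AHRR, from −0.0101 (without high-dose replicate 2) to 0.28 (without high-dose replicate 3) for UGT1A6, from −0.19 (without high-dose replicate 1) to 0.022 (without high-dose replicate 2) for CYP2S1, and from −0.075 (without high-dose replicate 2) to 0.16 (without high-dose replicate 3) for SLC16A1-AS1. It ranged from −0.32 (without high-dose replicate 2) to 0.96 (without high-dose replicate 3) for RN7SL2, from −0.047 (without high-dose replicate 2) to 0.69 (without high-dose replicate 3) for MT-ND6, from −0.074 (without high-dose replicate 1) to 0.17 (without high-dose replicate 2) for PGGHG, and from −0.015 (without high-dose replicate 3) to 0.10 (without high-dose replicate 1) for BIRC3. It ranged from −0.21 (without high-dose replicate 2) to 0.20 (without high-dose replicate 3) for MT-ND5, from −0.37 (without high-dose replicate 2) to 0.12 (without medium-dose replicate 1) for ENSG00000280614, and from −0.37 (without high-dose replicate 2) to 0.12 (without medium-dose replicate 1) for ENSG00000281181. DESeq2 without high-dose replicate 2 gave 0.014 for AHRR, −0.011 for UGT1A6, 0.0205 for CYP2S1, −0.072 for SLC16A1-AS1, −0.31 for RN7SL2 and −0.044 for MT-ND6. For MT-ND5 it was also above 0 without medium-dose replicate 1 (0.086) or 2 (0.012), and for ENSG00000280614 and ENSG00000281181 without high-dose replicate 3 (0.083 each). The causes were not tested. Having 3 libraries a group limits the precision, with a median standard error of 0.13 (log2) over the genes tested.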

Other observations

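The other DEGs outside the lists were named after their values were seen. Of those higher at the high dose, ASS1, which works in arginine synthesis, had 15.5, 16.5 and 17.2 CPM in the medium-dose and 28.4, 36.0 and 29.6 CPM in the high-dose libraries (log2 fold change 0.92, adjusted p = 0.00314 from edgeR's test), and its libraries did not overlap. IFRD1 had a log2 fold change of 0.64, and the adaptor GRB10 of 0.60. IFRD1 lost its call without high-dose replicate 2, and GRB10 was called under 11 of 22 alternatives. The actin-binding protein DBN1 rose by 0.85, the adaptor LAT2 by 0.86, the receptor subunit IL20RB by 0.92 and the phospholipid transfer protein PLTP by 0.94. IL20RB lost its call without medium-dose replicate 2 or 3, and PLTP was called under 12 of 22 alternatives.

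Of those lower at the high dose, the urea transporter SLC14A1 had 4.77, 4.63 and 4.14 CPM in the medium-dose and 2.66, 2.55 and 2.89 CPM in the high-dose libraries (log2 fold change −0.73, adjusted p = 0.0127). It lost its call without high-dose replicate 1 or medium-dose replicate 1 or 2. SLC38A11, a putative amino acid transporter, had a log2 fold change of −0.77, the GABA receptor subunit GABRP of −0.75 and CLIC5 of −0.69. GABRP was called under 10 of 22 alternatives. BCAS1 fell from 62.1, 64.1 and 64.5 to 38.2, 30.7 and 41.2 CPM (log2 fold change −0.79, adjusted p = 0.00265). TXNIP, a binding partner of thioredoxin that responds to glucose, had 36.0, 34.2 and 36.3 CPM against 16.6, 28.6 and 20.0 (log2 fold change −0.72, adjusted p = 0.0461), with high-dose replicate 2 the nearest to the medium dose. It was called under 8 of 22 alternatives, and of the single libraries left out only without high-dose replicate 2.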
